A study of Mus musculus with 9 samples.

Results

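The Hedgehog pathway was examined in mouse pancreatic tumor cells through 9 genes, which were the rows of the deposited expression table carrying the symbols Shh, Ihh, Ptch1, Hhip, Smo, Gli1, Gli2, Gli3 and Sufu. All 9 were found among its 24493 genes. RNA sequencing had been done on 9 libraries in 3 groups of 3, namely escape e2, escape e1 and parental. Both escape lines are immunotherapy-resistant tumor cells derived from the parental mouse pancreatic tumor line, and every group had the C57BL/6 genetic background, was grown in DMEM with serum and received no treatment. The labels give no further genotype, and they do not say how the escape lines were selected, whether each is a clone or whether replicate libraries were made from different cultures. The p-values therefore measure only the spread between these libraries, which may be technical.

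Hedgehog ligands bind the membrane receptor Ptch1, which otherwise holds back the transducer Smo. Active Smo acts at the primary cilium, a sensory projection of the cell, and changes the Gli transcription factors from repressors into activators, while Sufu retains Gli proteins in an inactive complex. Ptch1, Hhip and Gli1 are themselves induced by the pathway, and in pancreatic cancer the ligands are known chiefly as tumor cell signals to surrounding fibroblasts.

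Levels are given in TPM, a gene's share of all transcripts corrected for gene length, which allows levels of different genes to be compared. Read depth cannot be recovered from TPM and is unknown here, and an exact 0 is reported only as listed at 0. Differences are given on the log2(TPM + 1) scale with their standard error (SE), from a limma model over the 12769 genes that reached 1 TPM in 3 or more libraries. That scale understates changes of genes near 0. A gene was called at a Benjamini-Hochberg adjusted p under 0.05. Of the 9 genes, 5 were tested (Hhip, Ptch1, Smo, Gli3 and Sufu) and 4 lay under the filter (Shh, Ihh, Gli1 and Gli2). Hhip passed the filter only through e2 and Gli3 only through e1, so neither could have come out lower in the group that carried it, and the counts below are no support for a direction. Most tested genes differed between any 2 groups in these data, which sets the background for each count.

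Epithelial markers of the labelled tumor type were lower in the escape lines, and some were nearly lost. Epcam averaged 0.185 TPM in e2 and 0.296 TPM in e1, against 133 TPM in parental cells, and Krt7 averaged 28.1 TPM in e2 and 1.05 TPM in e1, against 2264 TPM in parental cells. The summed level of 6 epithelial markers ran from 1675 to 1735 TPM in e2, from 1164 to 1207 TPM in e1 and from 8044 to 9324 TPM in parental libraries, and in the escape lines it was carried mostly by Krt8 and Krt18. Of 10 fibroblast and stellate cell markers, 7 averaged at least 1 TPM in e2, 6 in e1 and 0 in parental cells. Their summed level ran from 217 to 227 TPM in e2, from 238 to 263 TPM in e1 and from 0.732 to 1.09 TPM in parental libraries. Lum was listed at 0 in all 9 libraries. Fap averaged 0.349 TPM in e2 and 0.00776 TPM in parental cells and was listed at 0 in e1. Des averaged 0.141 TPM in e2, 0.00598 TPM in e1 and 0.0446 TPM in parental cells. The 6 macrophage markers summed to between 60.2 and 65.0 TPM in e2, 8.90 and 15.2 TPM in e1, and 55.1 and 61.8 TPM in parental libraries, nearly all of it Cd14 and Cd68, while the leukocyte marker Ptprc averaged 0.0130 TPM in e2, 0.00345 TPM in e1 and 0.0755 TPM in parental cells. The 4 endothelial markers summed to at most 0.688 TPM in e2, 0.475 TPM in e1 and 0.885 TPM in parental libraries, and the 4 T cell markers to at most 0.422 TPM in e2, 0.50 TPM in e1 and 0.398 TPM in parental libraries. The summed fibroblast markers were thus higher, and the summed epithelial markers lower, in both escape lines than in parental cells. Lum, Fap and Des were not higher in e1. The part of these markers in the differences described below was not tested. In bulk RNA, fewer cells with a transcript and less transcript per cell cannot be told apart.

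Against the parental cells, the escape lines shared a modest rise of Ptch1 and Smo and differed in the members that changed most. Hhip rose in e2 and Gli3 rose in e1. In e2 minus parental, 3 of the 5 tested members were higher, 1 was lower and 1 was not called. Of all tested genes, 73.5% were called there, 40.8% higher and 32.7% lower. In e1 minus parental, 3 were higher, 0 lower and 2 not called, where 70.6% of all tested genes were called (35.7% higher, 34.9% lower). In e2 minus e1, 1 was higher, 2 were lower and 2 not called, against 70.3% of all tested genes called (40.6% higher, 29.7% lower). The median difference of the 5 tested members was 0.37 in e2 minus parental, 0.34 in e1 minus parental and -0.06 in e2 minus e1, and the medians of all tested genes were 0.07, 0.02 and 0.09 in the same order. Both escape comparisons use the same 3 parental libraries.

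**Figure D1:**
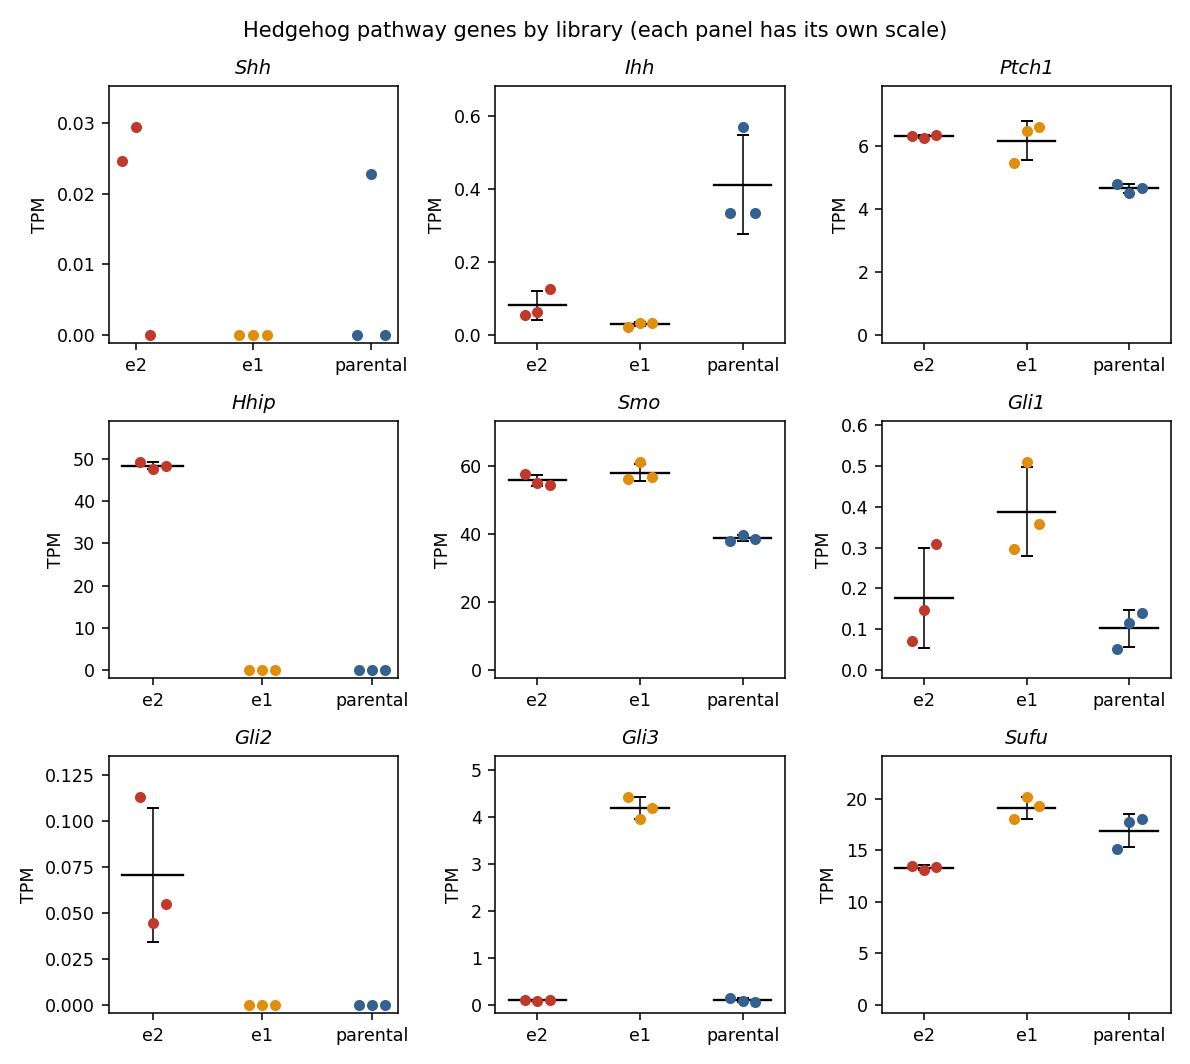
TPM of the 9 Hedgehog pathway genes (vertical axes, each panel on its own scale) in the 3 libraries of e2, e1 and parental cells, as points, with the mean and SD as bars where no library of the group was at 0. Hhip stood near 48.4 TPM in e2 and close to 0 elsewhere, Gli3 near 4.18 TPM in e1 and close to 0.1 elsewhere, and Smo and Ptch1 were higher in both escape lines than in parental cells.

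Ligand transcripts were scarce. Shh on chromosome 5, the ligand best known in pancreatic cancer, was measured at 0.0247, 0.0294 and 0 TPM in the e2 libraries, was listed at 0 in all 3 e1 libraries and was measured at 0, 0.0228 and 0 TPM in parental cells. The groups overlapped, and no library reached 0.03 TPM. Ihh on chromosome 1, a ligand of bone and gut epithelium, stood at 0.0537, 0.0638 and 0.126 TPM in e2, at 0.0226, 0.0338 and 0.0320 TPM in e1, and at 0.334, 0.570 and 0.336 TPM in parental cells. Every escape library lay under every parental library, and the e2 libraries lay above the e1 libraries. Groups that do not overlap were also found in 33.9% of untested genes above 0 in e2 against parental, in 30.5% in e1 against parental and in 28.7% in e2 against e1. In a fit with no filter on low values, Ihh was lower in e2 (-0.38, adjusted p = 0.000677, limma) and in e1 (-0.45, adjusted p = 0.000258) than in parental cells.

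The third ligand gene, Dhh on chromosome 15, belonged to a list of other pathway genes rather than to the 9. Dhh, known from testis and peripheral nerve, was the most abundant of the 3 ligand transcripts in every library. It stood at 2.90, 2.61 and 2.40 TPM in e2, at 0.255, 0.323 and 0.180 TPM in e1 and at 16.5, 18.7 and 17.4 TPM in parental cells. No 2 groups overlapped. Dhh fell in e2 (-2.35 ± 0.09, SE, adjusted p = 1.03e-08) and further in e1 (-3.89 ± 0.09, adjusted p = 4.54e-10), and it was higher in e2 than in e1 by 1.54 ± 0.09 (adjusted p = 3.47e-07, limma), or by 2.34 with the deposited rlog values.

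Hhip encodes a membrane protein that binds Hedgehog ligands and so limits the pathway. The gene lies on chromosome 8 (79965850 to 80058060, GRCm38.p6). Its level was 49.2, 47.6 and 48.4 TPM in the e2 libraries, against 0.0116, 0 and 0 TPM in the e1 libraries and 0.00658, 0.0127 and 0 TPM in the parental libraries. The e2 libraries lay within 2 TPM of each other and stood apart from all other libraries. The difference was 5.62 ± 0.07 in e2 minus parental (adjusted p = 1.23e-11) and 5.62 ± 0.07 in e2 minus e1 (adjusted p = 3.38e-11, limma). For e1 minus parental the 95% interval ran from -0.15 to 0.14 (adjusted p = 0.964). The size rests on the pseudocount, since with 0.1 in place of 1 the difference was 8.83 in e2 minus parental and 8.87 in e2 minus e1, and with the deposited rlog values it was 8.71 and 8.70. Among the fibroblast markers, Dcn was also higher in e2 (35.5 TPM) than in e1 (0.148 TPM), as was Postn (24.1 and 1.53 TPM). Thy1 (17.1 and 3.60 TPM) and Pdgfra were higher in e2 too, with differences of 2.05 and 1.66 in e2 minus e1. Fap and Des lay under the filter, and their e2 libraries were all above their e1 libraries. Groups that do not overlap were also found in 28.7% of untested genes above 0 in e2 against e1. Col1a1 (34.7 TPM in e2, 103 TPM in e1) and Col1a2 (82.0 TPM in e2, 116 TPM in e1) were higher in e1. Pdgfrb was not called between the escape lines (0.08). The part of fibroblast-like content in the level of Hhip was not tested.

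Gli3 encodes the Gli protein that acts mainly as the repressor of the pathway. It lies on chromosome 13 (15463723 to 15730026), the chromosome that also carries Ptch1. Gli3 stood at 0.104, 0.0883 and 0.0960 TPM in e2, at 4.41, 3.95 and 4.19 TPM in e1 and at 0.156, 0.0892 and 0.0676 TPM in parental cells. The e1 libraries lay above all others, while e2 and parental libraries overlapped. Gli3 rose in e1 by 2.23 ± 0.07 over parental cells (adjusted p = 4.03e-09) and was lower in e2 than in e1 (-2.24 ± 0.07, adjusted p = 9.71e-09, limma). The interval for e2 minus parental ran from -0.17 to 0.15 (adjusted p = 0.906). With a pseudocount of 0.1 the difference of e1 minus parental was 4.41 and that of e2 minus e1 was -4.45, and the rlog values gave 4.07 and -4.16.

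The start regions of Hhip and Gli3 are shown because these members differed most between the lines. Each sequence holds the 250 bases before and the 50 bases after the start of the RefSeq entry used for the window, on GRCm38.p6, written 5′ to 3′ on the gene's strand, with CG dinucleotides in capitals. The Hhip window is chr8:80057959-80058258 on the minus strand and the Gli3 window is chr13:15463473-15463772 on the plus strand. For Hhip the start used lies inside the extent of the gene given above, and for Gli3 it is the first base of that extent.
Hhip: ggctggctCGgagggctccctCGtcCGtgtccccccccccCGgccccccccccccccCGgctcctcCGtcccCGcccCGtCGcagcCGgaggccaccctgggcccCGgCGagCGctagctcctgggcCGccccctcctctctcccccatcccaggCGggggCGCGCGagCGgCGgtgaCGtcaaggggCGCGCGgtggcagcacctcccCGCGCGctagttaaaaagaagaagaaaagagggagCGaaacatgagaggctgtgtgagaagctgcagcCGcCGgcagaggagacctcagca
Gli3: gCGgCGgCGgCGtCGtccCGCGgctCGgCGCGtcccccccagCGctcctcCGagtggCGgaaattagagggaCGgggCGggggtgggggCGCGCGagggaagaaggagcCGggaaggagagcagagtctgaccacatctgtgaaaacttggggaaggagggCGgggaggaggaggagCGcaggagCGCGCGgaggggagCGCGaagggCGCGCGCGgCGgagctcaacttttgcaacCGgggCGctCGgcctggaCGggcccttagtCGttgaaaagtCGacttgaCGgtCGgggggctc
The Hhip window held 30 CG dinucleotides at 73.7% G + C, a count reached or passed by 11.7% of 32851 promoter windows. The Gli3 window held 39 at 71.0% G + C, reached or passed by 4.45% of windows, and the median over all windows was 7. Windows were found for 7 of the 9 members, and the other 5 were those of Ihh, Gli2, Smo, Ptch1 and Sufu. The Gli binding sequence GACCACCCA, searched on both strands (TGGGTGGTC on the other), was in 0 of these 7 windows and in 0.253% of all windows. Absence of these letters from a window of 300 bases says nothing of Gli binding at these genes.

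Genes beside Hhip and Gli3 were looked up after their values were seen. The nearest tested genes on either side of Hhip were Anapc10, at a distance of 189 kb, and Smarca5, at 642 kb. Anapc10 averaged 9.27 TPM in e2, 9.60 TPM in e1 and 10.0 TPM in parental cells and was not called (e2 minus parental -0.10, adjusted p = 0.248). Smarca5, at 78.1 TPM in e2, 101 TPM in e1 and 102 TPM in parental cells, was lower in e2 (-0.38, adjusted p = 0.00393, limma). The nearest on either side of Gli3 were AW209491, at 826 kb and higher by 0.26 in e2 and 0.22 in e1 than in parental cells (adjusted p = 0.00337 and 0.00977), and Inhba, at 274 kb, which encodes an activin subunit. Inhba averaged 25.4 TPM in e2, 21.7 TPM in e1 and 5.90 TPM in parental cells and was higher in both e2 (1.94, adjusted p = 2.06e-05) and e1 (1.65, adjusted p = 6.92e-05) than in parental cells.

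The genes most like each of these members were found by the smallest Euclidean distance over the 9 libraries between mean-centred log2(TPM + 1) values, among 11961 tested genes, and this likeness carries no test. For Hhip the nearest were Pdpn (distance 0.644), Dcn (0.801), Prrx1 (0.950) and Plvap (0.965). Pdpn, which encodes podoplanin, averaged 70.3 TPM in e2, 0.0518 TPM in e1 and 0.0722 TPM in parental cells. Plvap, which encodes a protein of endothelial fenestrae, averaged 63.4 TPM in e2, 0.760 TPM in e1 and 0.0381 TPM in parental cells. Dcn is also in the fibroblast marker list. For Gli3 the nearest were Dmrta2 (0.367), Rbm20 (0.371), Boc (0.390) and Tbx18 (0.394), with means from 3.37 to 4.38 TPM in e1, at most 0.280 TPM in e2 and at most 0.0729 TPM in parental cells. Boc encodes a Hedgehog co-receptor and is described with the other receptors.

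Ptch1 is the ligand receptor and a standard reporter of pathway activity. Ptch1, on chromosome 13 (63508328 to 63573460), stood at 6.30, 6.24 and 6.35 TPM in e2, at 5.46, 6.47 and 6.59 TPM in e1 and at 4.79, 4.51 and 4.68 TPM in parental cells. All escape libraries lay above all parental libraries, and the escape lines overlapped. Ptch1 rose by 0.37 ± 0.08 in e2 (adjusted p = 0.00200) and by 0.34 ± 0.08 in e1 (adjusted p = 0.00338, limma). The difference between e2 and e1 was 0.03 with a 95% interval from -0.15 to 0.20 (adjusted p = 0.763).

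Smo, the membrane transducer on chromosome 6 (29735497 to 29761366), was the most abundant of the 9 genes in every library. Smo stood at 57.6, 55.1 and 54.5 TPM in e2, at 56.2, 61.0 and 56.8 TPM in e1 and at 38.0, 39.7 and 38.5 TPM in parental cells. Here too the escape libraries all lay above the parental ones and overlapped with each other. Smo rose by 0.51 ± 0.05 in e2 (adjusted p = 1.39e-05) and by 0.57 ± 0.05 in e1 (adjusted p = 7.26e-06, limma). The difference of e2 minus e1 was -0.06, with an interval from -0.17 to 0.06 (adjusted p = 0.370). It was called with median-ratio scaling (-0.15, adjusted p = 0.0126) and with rlog values (-0.13, adjusted p = 0.0132), and the alternatives gave it adjusted p values between 0.0126 and 0.866.

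Sufu, the cytoplasmic inhibitor of Gli proteins, was measured on chromosome 19 (46396896 to 46488804) at 13.5, 13.1 and 13.4 TPM in e2, at 18, 20.1 and 19.3 TPM in e1 and at 15.1, 17.7 and 18 TPM in parental cells. The e2 libraries lay under all others, and the e1 libraries lay above all parental ones, though the lowest e1 and the highest parental library differ by less than the digits printed. Sufu fell in e2 against parental cells (-0.32 ± 0.08, adjusted p = 0.00398) and was lower in e2 than in e1 (-0.49 ± 0.08, adjusted p = 0.000286, limma). For e1 minus parental the value was 0.17 ± 0.08 and was not called (adjusted p = 0.0663). That call changed with the setting: without e1 library 1 the value was 0.21 (adjusted p = 0.0254), it was also called with median-ratio scaling, with the 10 highest genes removed and with rlog values, and the alternatives gave adjusted p values between 0.0254 and 0.192.

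**Figure D2:**
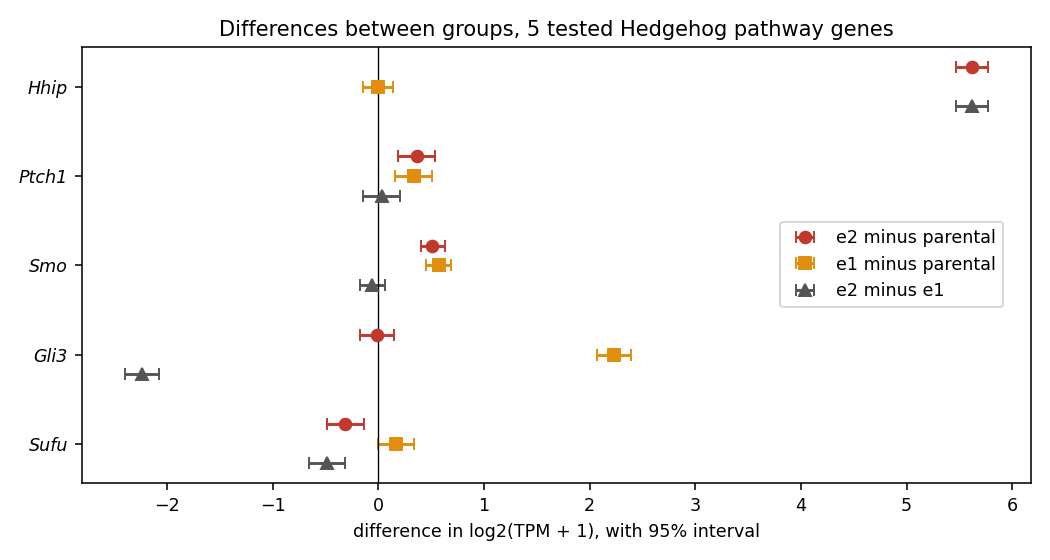
Differences in log2(TPM + 1) (horizontal axis) with 95% intervals for the 5 tested Hedgehog pathway genes, with circles for e2 minus parental, squares for e1 minus parental and triangles for e2 minus e1. Hhip differed by 5.62 in both comparisons with e2 on top, Gli3 by 2.23 in e1 minus parental, and Ptch1 and Smo by at most 0.57 in any comparison.

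Transcripts of the activating Gli factors were at low levels. Gli1, on chromosome 10, is the activator whose transcript is commonly read as a sign of pathway activity, and it stood at 0.0705, 0.147 and 0.310 TPM in e2, at 0.297, 0.509 and 0.358 TPM in e1 and at 0.0505, 0.114 and 0.140 TPM in parental cells. The e1 libraries lay above all parental libraries, and e2 overlapped with both other groups. With no filter on low values, Gli1 was higher in e1 than in parental cells (0.33, adjusted p = 0.00812), not called in e2 minus parental (0.09, adjusted p = 0.389) and lower in e2 than in e1 (-0.24, adjusted p = 0.0357, limma). Gli2, on chromosome 1, is the main activator of the early response and stood at 0.113, 0.0447 and 0.0551 TPM in e2, while it was listed at 0 in all e1 and all parental libraries. Gli1 and Gli2 were thus under 1 TPM in every library, and among the Gli genes only Gli3 in e1 exceeded that level.

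Other genes of the pathway were taken from a list of 33 symbols by role, of which 32 were in the table and 27 were tested. In e2 minus parental 14 were higher and 8 lower, or 81.5% called, with a median of 0.35. In e1 minus parental 14 were higher and 4 lower (66.7% called, median 0.22), and in e2 minus e1 10 were higher and 12 lower (81.5% called, median -0.12). The shares called lie near the backgrounds given above. Of all tested genes, 40.8% were higher and 32.7% lower in e2 minus parental. In e1 minus parental these were 35.7% and 34.9%, and in e2 minus e1 40.6% and 29.7%. The filter bears on these counts too, since genes near 0 in parental cells such as Boc, Hhat and Scube3 could hardly come out lower.

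Of the 5 tested genes of ligand handling, 3 were higher and 1, Dhh, was lower in both e2 and e1 against parental cells, where 40.8% of all tested genes were called higher and 32.7% lower in e2, and 35.7% higher and 34.9% lower in e1. The higher genes were Hhat, Scube3 and Disp2 in e2, and Hhat, Scube3 and Disp1 in e1. Hhat, Scube3 and Disp2 were under 1 TPM in every parental library. They passed the filter only through escape libraries, Disp2 only through e2. Disp1 was above 1 TPM in every library and was free to go either way. With most of the higher genes held by the filter, the counts give no direction for the group. Hhat encodes the enzyme that attaches palmitate to the ligands. It stood at 1.81, 1.65 and 1.66 TPM in e2, at 2.79, 3.95 and 3.95 TPM in e1 and at 0.111, 0.192 and 0.184 TPM in parental cells, and no 2 groups overlapped (1.22 in e2 and 1.96 in e1 minus parental, adjusted p = 5.58e-06 and 2.09e-07, limma). Scube3, of a family of secreted proteins that carry the ligands, stood at 8.27, 9.46 and 9.09 TPM in e2 and 8.60, 6.14 and 8.03 TPM in e1, against 0.0838, 0.0405 and 0.0748 TPM in parental cells. It rose by 3.22 ± 0.11 in e2 (adjusted p = 7.08e-09) and by 3.0 ± 0.11 in e1 (adjusted p = 1.26e-08, limma). Disp1, the transporter that frees the ligands from the membrane, averaged 6.60 TPM in e2, 13.3 TPM in e1 and 6.12 TPM in parental cells, and was higher in e1 (1.0 ± 0.07, adjusted p = 1.09e-06, limma) and not called in e2 (0.09, adjusted p = 0.258).

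The co-receptors split between the escape lines. Gas1, a membrane-anchored protein that helps present the ligands to Ptch1, stood at 73.2, 65.8 and 74.7 TPM in e2, at 9.71, 22.7 and 21.5 TPM in e1 and at 1.53, 0.941 and 0.923 TPM in parental cells. No 2 groups overlapped, and e1 library 1 was the lowest of its group. Gas1 rose by 5.09 ± 0.27 in e2 (adjusted p = 2.10e-07) and by 3.08 ± 0.27 in e1 (adjusted p = 7.32e-06), and it was higher in e2 than in e1 by 2.01 ± 0.27 (adjusted p = 0.000139, limma).

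The related co-receptors Boc and Cdon were highest in e1. Boc stood at 0.159, 0.103 and 0.136 TPM in e2 and at 4.56, 3.16 and 3.28 TPM in e1, and it was listed at 0 in all parental libraries. It rose in e1 (2.21 ± 0.11, adjusted p = 8.44e-08) and was lower in e2 than in e1 (-2.03 ± 0.11, adjusted p = 2.46e-07, limma), a value that was -3.38 with rlog values. Boc passed the filter only through e1 libraries, so it could hardly come out lower in e1 than in either other group. Cdon stood at 2.69, 2.92 and 3.08 TPM in e2, at 8.63, 11.0 and 11.7 TPM in e1 and at 4.90, 5.03 and 4.67 TPM in parental cells. Cdon fell in e2 (-0.59 ± 0.10, adjusted p = 0.000634), rose in e1 (0.95 ± 0.10, adjusted p = 2.51e-05) and was lower in e2 than in e1 (-1.55 ± 0.10, adjusted p = 1.14e-06, limma). Lrp2, a large endocytic receptor that can bind Shh, stood at 0.0120, 0.0143 and 0.0141 TPM in e2, at 1.91, 0.725 and 0.805 TPM in e1 and at 1.32, 1.17 and 1.39 TPM in parental cells. It fell in e2 (-1.18 ± 0.17, adjusted p = 0.000178, limma), a value that was -4.0 with rlog values. Lrp2 passed the filter through no e2 library, so it could hardly come out higher in e2.

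Of 18 tested genes that control Smo and Gli proteins, 10 were higher and 5 lower in e2, and 8 higher and 3 lower in e1, against parental cells, beside 40.8% higher and 32.7% lower among all tested genes in e2 and 35.7% and 34.9% in e1. Evc2, a ciliary protein that passes the signal on from Smo, stood at 3.98, 3.51 and 3.96 TPM in e2 and at 7.11, 8.14 and 7.99 TPM in e1, against 0.0746, 0.245 and 0.284 TPM in parental cells (2.01 ± 0.10 in e2, adjusted p = 5.73e-08, and 2.87 ± 0.10 in e1, adjusted p = 5.45e-09, limma). Evc2 passed the filter only through escape libraries, so it could hardly come out lower in them. Its partner Evc averaged 0.289 TPM in e2, 0.0349 TPM in e1 and 0.0356 TPM in parental cells and was not tested. Cul3, the scaffold of a ubiquitin ligase that acts on Gli proteins, averaged 82.1 ± 2.62 TPM in e2, 42.1 ± 2.95 TPM in e1 and 64.4 ± 6.14 TPM in parental cells (SD, n = 3 each). It rose in e2 (0.35, adjusted p = 0.00271) and fell in e1 (-0.60, adjusted p = 8.88e-05, limma). Gsk3b, a kinase that marks Gli proteins for processing, averaged 10.2 ± 0.269 TPM in e2, 17.0 ± 0.863 TPM in e1 and 16.1 ± 0.887 TPM in parental cells and fell in e2 (-0.61, adjusted p = 1.57e-05). Grk2, a kinase of Smo, averaged 56.6 ± 0.666 TPM in e2, 61.5 ± 3.51 TPM in e1 and 82.2 ± 9.40 TPM in parental cells and fell in both e2 (-0.52, adjusted p = 0.000296) and e1 (-0.41, adjusted p = 0.00158, limma).

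**Figure D3:**
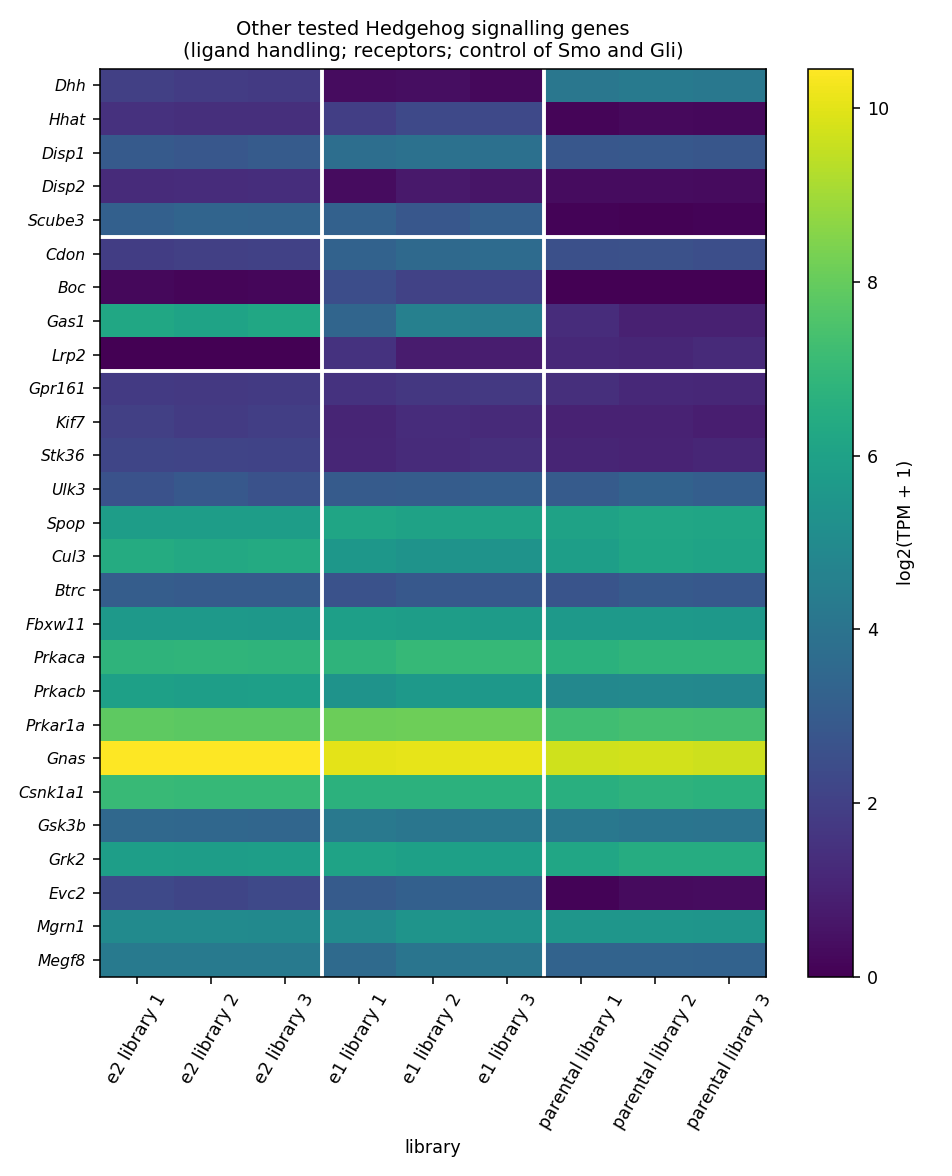
Level of the 27 tested other Hedgehog signalling genes as log2(TPM + 1) (colour scale) in each library (horizontal axis, e2 then e1 then parental), with white lines between groups and between roles. Gas1 and Scube3 were brighter in both escape lines than in parental cells, Boc was visible in e1 and Dhh was brightest in parental libraries.

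Genes reported in the literature as Hedgehog targets in various tissues formed a second list of 19, of which 16 were tested. In e2 minus parental 10 were higher and 3 lower (81.2% called, median 0.76), in e1 minus parental 8 were higher and 5 lower (81.2% called, median 0.29), and in e2 minus e1 9 were higher and 4 lower (81.2% called, median 0.34). Of all tested genes, 73.5% were called in e2 minus parental (40.8% higher, 32.7% lower) and 70.6% in e1 minus parental (35.7% higher, 34.9% lower). For e2 minus e1 the share was 70.3% (40.6% higher, 29.7% lower). Foxf1, Foxl1, Foxc2, Snai1, Nkx3-2, Osr1 and Igf2 were under 1 TPM in every parental library and passed the filter only through escape libraries, so they could hardly come out lower there. Among them, Foxl1 and Nkx3-2 passed only through e2 and Igf2 only through e1. The filter thus also set the direction of Foxl1, Nkx3-2 and Igf2 between the escape lines. The largest rises in e2 minus parental within the list were those of 3 transcription factor genes, Osr1, Foxl1 and Nkx3-2. Osr1 stood at 31.5, 32.8 and 33.2 TPM in e2, at 11.4, 11.0 and 9.77 TPM in e1 and at 0.707, 0.621 and 0.727 TPM in parental cells (4.31 ± 0.07 in e2 and 2.80 ± 0.07 in e1, adjusted p = 8.03e-11 and 1.18e-09, limma). Foxl1 stood at 16.1, 14.0 and 13.9 TPM in e2, at 0.112, 0.111 and 0.105 TPM in e1 and at 0.0211, 0.0408 and 0.0503 TPM in parental cells, and was higher in e2 than in e1 by 3.82 ± 0.08 (adjusted p = 6.89e-10, limma). Nkx3-2 stood at 12.8, 11.2 and 14.0 TPM in e2 and at 0.330, 0.617 and 0.233 TPM in e1 and was listed at 0 in all parental libraries. Foxl1 and Nkx3-2 thus stood at 11.2 TPM or more in e2 and at 0.617 TPM or less in every other library.

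Other reported targets did not follow that pattern. Igf2, a growth factor gene, stood at 0.0889, 0.0212 and 0.107 TPM in e2, at 21.2, 18 and 18.5 TPM in e1 and at 0.0512, 0.0165 and 0 TPM in parental cells, and was higher in e1 than in parental cells by 4.30 ± 0.08 (adjusted p = 2.34e-10, limma). Snai1, a repressor of epithelial genes, averaged 12.6 ± 0.365 TPM in e2, 31.7 ± 2.25 TPM in e1 and 0.501 ± 0.352 TPM in parental cells (SD, n = 3 each) and rose in both (3.21, adjusted p = 3.34e-08 in e2, and 4.47, adjusted p = 3.86e-09 in e1). Ccnd2, which encodes cyclin D2, averaged 4.37 ± 0.0810 TPM in e2, 54.0 ± 5.15 TPM in e1 and 28.9 ± 4.51 TPM in parental cells, falling in e2 (-2.46, adjusted p = 3.98e-08) and rising in e1 (0.89, adjusted p = 6.29e-05, limma).

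Further targets were lower in at least 1 escape line. Mycn, a relative of Myc induced by the pathway in cerebellar precursors, averaged 0.125 ± 0.0988 TPM in e2, 0.241 ± 0.0475 TPM in e1 and 3.55 ± 0.976 TPM in parental cells and fell in e2 (-2.0, adjusted p = 9.16e-07) and in e1 (-1.85, adjusted p = 1.68e-06, limma). Mycn passed the filter only through parental libraries, so it could hardly come out higher in an escape line. Foxf2, another factor of gut mesenchyme, averaged 29.6 ± 1.38 TPM in e2, 4.65 ± 0.108 TPM in e1 and 17.3 ± 5.47 TPM in parental cells. Against parental cells it was higher in e2 (0.79, adjusted p = 0.00431) and lower in e1 (-1.65, adjusted p = 3.97e-05, limma). Parental library 1 stood at 11.0 TPM, under libraries 2 and 3 at 20.8 and 20.1 TPM. Foxf2 was higher in e2 than in e1 by 2.44 ± 0.19 (adjusted p = 3.14e-06, limma). Bcl2, a survival gene, averaged 6.66 ± 0.516 TPM in e2, 2.68 ± 0.276 TPM in e1 and 7.10 ± 0.412 TPM in parental cells and fell in e1 (-1.14, adjusted p = 1.65e-06, limma). Cdk6, a cell cycle kinase, had a difference of -0.19 in e2 minus parental (adjusted p = 0.0226, limma), and the call ended without any of e2 libraries 1 to 3, parental library 1 or parental library 2, with adjusted p from 0.0510 to 0.0753, and with the 10 highest genes removed (0.0597).

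Primary cilium genes, on which Smo and Gli signalling depends, formed the third list, with 50 of 51 tested. In e2 minus parental 35 were higher and 3 lower (76.0% called, median 0.50), where 40.8% of all tested genes were called higher and 32.7% lower. Under median-ratio scaling the balance over all tested genes turned, with 4633 higher and 4828 lower, and 33 cilium genes were higher and 4 lower. In e1 minus parental 20 were higher and 8 lower (56.0% called, median 0.15), and the shares of all tested genes were 35.7% higher and 34.9% lower. The e1 median moved with library 1, which was the lowest e1 library in 44 of the 50 genes, against 48.9% of all tested genes. Without e1 library 1 the median was 0.26, with 29 higher and 8 lower, and without e1 library 2 or 3 it was 0.09. In e2 minus e1 30 were higher and 5 lower (70.0% called, median 0.32), beside 40.6% higher and 29.7% lower among all tested genes. This comparison moved too: without e1 library 1, 29 were higher and 7 lower (median 0.28), and without e1 library 2 or 3 the median was 0.37. Under median-ratio scaling 27 were higher and 5 lower (median 0.23). Of the 23 genes of intraflagellar transport and its motors, 17 were higher and 2 lower in e2, and 10 higher and 3 lower in e1. Of the 27 tested genes of the cilium membrane, transition zone and base, 18 were higher and 1 lower in e2, and 10 higher and 5 lower in e1.

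Among the cilium genes, Wdr35, a subunit of a transport complex that carries Hedgehog components, stood at 36.1, 33.7 and 34.3 TPM in e2, at 14.6, 18.2 and 18 TPM in e1 and at 9.23, 7.87 and 8.06 TPM in parental cells. It rose by 1.93 ± 0.09 in e2 (adjusted p = 6.35e-08) and by 0.93 ± 0.09 in e1 (adjusted p = 1.31e-05, limma). Ift80, of the other transport complex, averaged 37.3 ± 2.51 TPM in e2, 26.8 ± 5.20 TPM in e1 and 10.8 ± 0.264 TPM in parental cells (SD, n = 3 each) and rose by 1.70 in e2 and 1.22 in e1. Tmem67, a transition zone membrane protein, rose by 1.62 in e2 and 1.13 in e1. Ttc21b, a transport subunit whose loss raises Hedgehog signalling in mice, averaged 10.9 ± 0.547 TPM in e2, 13.7 ± 0.942 TPM in e1 and 20.6 ± 1.54 TPM in parental cells and fell in both e2 (-0.85, adjusted p = 5.40e-06) and e1 (-0.55, adjusted p = 0.000131, limma). Arl13b, a small GTPase of the cilium membrane, averaged 8.30 ± 0.417 TPM in e2, 13.9 ± 0.408 TPM in e1 and 14.5 ± 0.586 TPM in parental cells and fell in e2 (-0.73, adjusted p = 3.53e-06).

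Between the escape lines, the transition zone genes Cc2d2a (1.86 ± 0.12) and Tctn1 (1.31 ± 0.14) were higher in e2 than in e1. Cc2d2a stood at 13.1, 13.2 and 12.6 TPM in e2, at 2.20, 3.38 and 3.07 TPM in e1 and at 4.77, 4.21 and 3.85 TPM in parental cells, so that e2 lay above and e1 under the parental libraries. Kif3b, a subunit of the transport motor, averaged 26.9 ± 0.278 TPM in e2, 12.3 ± 0.132 TPM in e1 and 20.8 ± 0.459 TPM in parental cells (SD, n = 3 each), rising in e2 (0.35, adjusted p = 0.000110) and falling in e1 (-0.72, adjusted p = 7.63e-07, limma). Ift88, a transport subunit needed for Hedgehog signalling in mice, averaged 3.45 ± 0.308 TPM in e2, 5.34 ± 0.457 TPM in e1 and 3.26 ± 0.172 TPM in parental cells and was lower in e2 than in e1 (-0.51, adjusted p = 0.000495, limma).

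**Figure D4:**
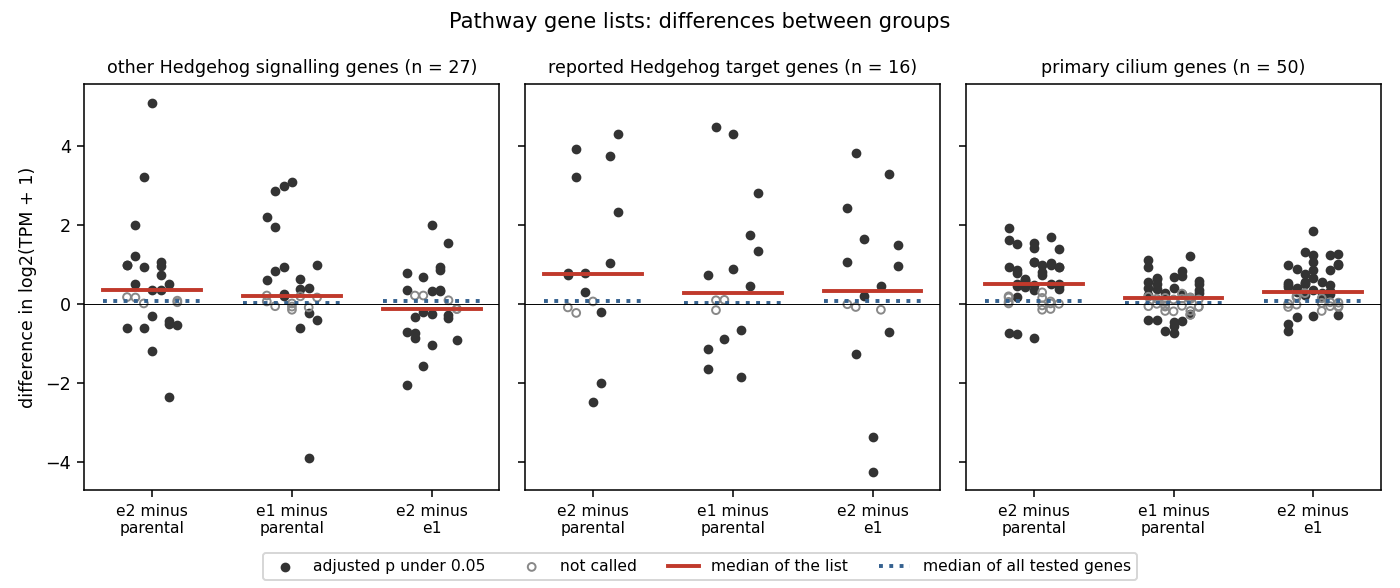
Differences in log2(TPM + 1) (vertical axis) of the tested genes of 3 lists in e2 minus parental, e1 minus parental and e2 minus e1, with filled points for genes called at an adjusted p under 0.05 and open points for the rest. Solid lines mark the list's median and dotted lines the median of all tested genes, and the cilium genes have medians of 0.50, 0.15 and 0.32 in these comparisons.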

How the data were processed

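RNA was sequenced in 9 libraries, 3 per group. The authors deposited TPM per gene and also rlog values, which are on a log2 scale. The tools Salmon and DESeq2 and the build mm10 come per the submitters' processing notes, while no source used here gives their versions, the annotation or the strand setting. Deposited TPM has a fixed sum per library, so no counting interval can be given, and Mir6236 held 3.92 to 9.48% of it. Groups and library numbers come from the titles.

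From the TPM, log2(TPM + 1) was computed, and the 12769 genes reaching 1 TPM in 3 or more libraries were fitted with limma 3.58.1 (R 4.3.3), using 3 group means and empirical Bayes with trend and robust options. Two-sided p-values were adjusted over all tested genes (Benjamini-Hochberg). The step was tested on simulated data. No 2 libraries were identical, and Pearson correlations over genes ran from 0.987 to 0.995 within groups and from 0.840 to 0.923 between groups.

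The members and lists were chosen with earlier results of these data known. Named genes are all members, up to 3 called genes per list, comparison and direction, and the 4 genes most like each member whose group means differ by at least 1 on the log2 scale, leaving out predicted and clone-named genes. Hhat, Disp1, Evc and the genes beside Hhip and Gli3 were named after their values were seen. Coordinates and promoters are from RefSeq on GRCm38.p6, matched by symbol. Some items are not reported here. The fit was repeated with the library number as a block, on only the 2 groups compared, on rlog values, with the 10 highest genes taken out, under median-ratio scaling, at a filter of 5 TPM or none, with 0.1 as pseudocount, without the trend and robust options, and without each library in turn.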

Additional observations from a re-analysis of the deposited data

Results flagged for a closer look

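Of 5 tested members and 27 other tested signalling genes, 8 were flagged as differing between the escape lines in their effect against parental cells. The rule asked for a called e2 minus e1 difference (limma). It also asked for a size of at least 1 on the log2 scale or called effects in opposite directions. The share of all tested genes that meet this rule is not given, but 70.3% of them were called in e2 minus e1. The difference of e2 minus e1 was 5.62 for Hhip, 2.01 for Gas1 and 1.54 for Dhh, all higher in e2 than in e1. It was -2.24 for Gli3, -2.03 for Boc, -1.55 for Cdon and -1.04 for Lrp2 (-3.74 with rlog values), all lower in e2 than in e1. For Cul3 it was 0.95, with a rise in e2 and a fall in e1 against the parental cells, and Cdon also had opposite called effects. Hhip passed the filter only through e2, and Gli3 and Boc only through e1, so the filter set their direction. Lrp2 passed through no e2 library and could hardly come out higher in e2.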

How the results depend on the processing

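Across 18 alternatives, the numbers of all tested genes called stayed within 1.5 times those reported. They ran from 7795 to 10908 in e2 minus parental, from 7548 to 10152 in e1 minus parental and from 7630 to 10038 in e2 minus e1. The same held for the lists, at 16 to 24, 14 to 22 and 16 to 24 other signalling genes, 10 to 15, 10 to 14 and 11 to 14 reported targets, and 33 to 42, 21 to 37 and 28 to 38 cilium genes, in the same order of comparisons. Over all tested genes in e2 minus parental, 5209 were higher and 4174 lower as reported, against 4633 higher and 4828 lower with median-ratio scaling and 4625 higher and 4808 lower with rlog values. Medians of the lists moved more than their counts: in e2 minus parental that of the other signalling genes was 0.13 at 5 TPM, 0.17 with no filter and 0.22 with rlog values, and in e1 minus parental that of the targets ran to 0.68 with a pseudocount of 0.1 and 0.10 with no filter. With no filter, all 9 members entered the fit, and 5 were called in e1 minus parental, the added ones being Ihh and Gli1, and 5 in e2 minus e1, the added ones being Gli1 and Gli2. In e2 minus parental 6 were called, with Ihh and Gli2 added. Over all 19340 genes of that fit, 10152 were called in e1 minus parental and 10038 in e2 minus e1. In e2 minus parental 10908 were called, so calls were common there among all genes too. No called difference of a tested member changed sign or lost its call under any alternative that could test it. A filter of 5 TPM removed Gli3. With the library number as a block, 9163, 8742 and 8740 genes and 4, 3 and 3 members were called in the same order. Libraries of the same number did not deviate together (correlations from -0.130 to 0.0499, and from -0.161 to 0.127 for other numbers). These values do not show how the libraries were prepared, so whether the numbers pair the samples stays unknown. The block changed no call of a member. Depth is unknown, which limits every value under 1 TPM. Among the members these are the values of Shh, Ihh, Gli1 and Gli2 in all groups, of Hhip outside e2 and of Gli3 outside e1. The limit also holds for genes of the lists, such as Dhh in e1, Boc and Igf2 outside e1, Lrp2 in e2, Foxl1 and Nkx3-2 outside e2, and Mycn in both escape lines.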
